A study of Canis lupus familiaris with 6 samples.

Results

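The genes described here are the nuclear-encoded subunits of the mitochondrial respiratory chain and of the ATP synthase. They were chosen by name: every gene outside the mitochondrial genome whose symbol starts with NDUFA, NDUFB, NDUFC, NDUFS, NDUFV, UQCR or ATP5, the genes SDHA to SDHD, and genes starting with COX and a digit from 4 to 8, with the assembly factors NDUFAF and SDHAF left out. The rule found 57 of the 31512 genes in the table, of which 29 belonged to complex I, 3 to complex II, 6 to complex III, 9 to complex IV and 10 to complex V. Whole blood RNA of 6 Beagle dogs, 1.5 years old and fed the same maintenance food, had been sequenced as 1 library per dog. The 3 control dogs (CONT) received a daily 30 g snack without CPP-Se for 30 days, and the 3 dogs of the CPP-Se group received the same amount of a snack with 0.03% CPP-Se, the chelate of casein phosphopeptide with selenium. The dogs were healthy adults. The comparison asked whether feeding with CPP-Se altered the RNA levels of these subunits in blood.

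The respiratory chain passes electrons from NADH (complex I) and succinate (complex II) through ubiquinone, complex III and cytochrome c to oxygen at complex IV, and complexes I, III and IV pump protons across the inner mitochondrial membrane. Complex V, the ATP synthase, uses that proton gradient to make ATP. A few subunits of complexes I, III, IV and V are encoded by the mitochondrial genome, and all others, including the whole of complex II, are nuclear genes whose products are imported and assembled. In blood these complexes are found in white cells, platelets and immature red cells, while mature red cells of mammals have no mitochondria.

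No respiratory chain subunit passed the test across all genes. Of the 57 genes, 51 had a mean of at least 1 FPKM (a level scaled by gene length and library size) and were tested with limma on log2(FPKM + 1), with Benjamini-Hochberg adjustment over 9847 genes. A gene was called at an adjusted p under 0.05 with a fold change of at least 1.5. None of the 51 was called, against 3 of all 9847 genes tested (0.0305%). At an unadjusted p under 0.05 there were 2 members, SDHB and NDUFV3, which is 3.92% of those tested, against 16.0% of all genes. With single dogs left out this count ran from 0 (without control dog 2, against 1279 of all 9847 genes) to 6 (without CPP-Se dog 1, against 1280 of all genes), and without control dog 1 neither SDHB nor NDUFV3 was among them. The voom fit of limma on recovered reads also called 0 members and 1 gene in all, with 3.92% of the members and 16.1% of all genes at an unadjusted p under 0.05. With sample weights it called 0 members and 156 genes in all, with 11.8% of the members and 20.5% of all genes at an unadjusted p under 0.05. The lowest adjusted p of any member was 0.253, for SDHB, and over the 20 alternative settings it ranged down to 0.151.

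The median log2 fold change (CPP-Se minus control) of the 51 members was -0.0044 and that of all genes tested was -0.0043. Without control dog 2 these medians were 0.11 and -0.0042. The quartiles were -0.20 and 0.21 for the members and -0.29 and 0.27 for all genes. There were 24 members with a positive and 27 with a negative value. In 3 members (NDUFV3, SDHC and COX4I1) all CPP-Se dogs lay above all control dogs, against 10.4% of all genes, and in 1 member (COX7A1) all lay below, against 12.6%. A log2 fold change beyond 1.5-fold was seen in 8 members, 3 upward and 5 downward, which is 15.7% against 18.6% of all genes. Each of these shares was below the share over all genes. The 95% interval of the log2 fold change lay within 1.5-fold in both directions for 13 members and within 2-fold for 37, so that for the other 14 a 2-fold difference in at least 1 direction remained inside the interval.

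**Figure D1:**
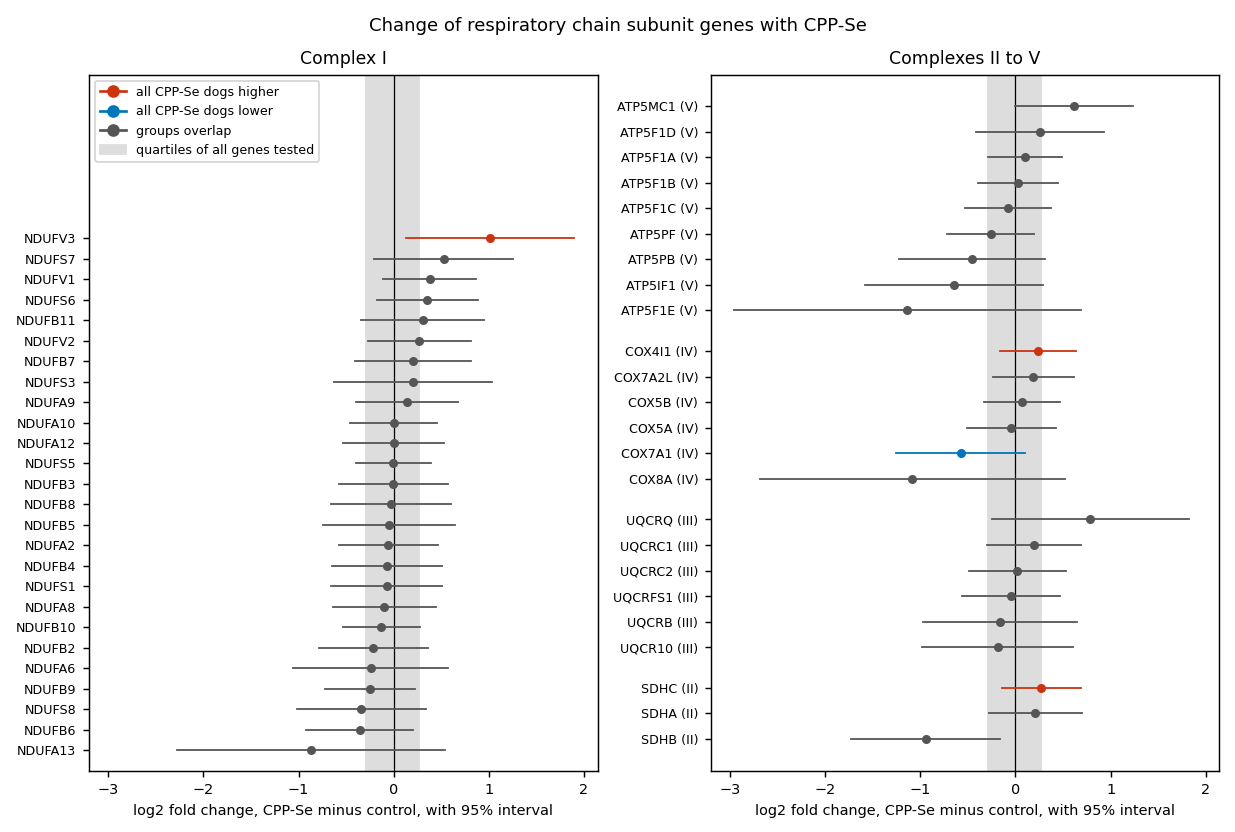
Log2 fold change (CPP-Se minus control, log2(FPKM + 1) scale) of 50 of the 51 subunit genes tested, with 95% intervals from limma, ordered within each complex. Red marks the 3 genes in which all CPP-Se dogs were higher, blue the 1 gene in which all were lower, grey the genes whose groups overlapped, and the shaded band spans the quartiles of all 9847 genes tested. All intervals drawn hold 0 except those of NDUFV3 and SDHB.

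The summed FPKM of all members was 1592, 1629 and 1338 in control dogs 1, 2 and 3, and 1891, 1268 and 1496 in CPP-Se dogs 1, 2 and 3. On this scale the highest sum was that of CPP-Se dog 1 and the lowest that of CPP-Se dog 2, so the groups overlapped. As a share of reads on genes the order was another: members took 0.238% in CPP-Se dog 2, the highest of the 6, and 0.147% in CPP-Se dog 3, the lowest, with 0.194% in CPP-Se dog 1 and 0.155% to 0.171% in control dogs. For complex I the sums were 928 ± 114 FPKM (SD, n = 3) in control and 942 ± 220 in CPP-Se dogs, and for complex V 306 ± 35.7 and 310 ± 60.2. Complex III came to 110 ± 5.59 and 122 ± 22.7 FPKM, complex IV to 143 ± 9.68 and 147 ± 14.3, and complex II to 32.7 ± 4.83 and 31.2 ± 4.48. The groups overlapped in every complex. By FPKM, CPP-Se dog 1 had the highest FPKM of the 6 dogs in 17 of the 51 members (33.3%, against 23.9% of all genes) and CPP-Se dog 2 in 0 (against 11.1% of all genes).

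Those libraries held 6598173 to 8067034 reads on genes, of which 10229 to 19211 per dog lay on members, the most in CPP-Se dog 2. CPP-Se dog 2 stood apart: 36.6% of its reads were on hemoglobin genes, against 48.7% to 55.9% in the other 5 dogs, and the library size behind its FPKM was 1.65 times its reads on genes, against 0.882 to 1.05 in the others. Without that dog 0 members were called, 9 were higher and 1 lower in all remaining CPP-Se dogs than in all control dogs, where 16.2% and 18.0% of all genes were. Blood cell markers also differed: summed monocyte markers were 638 to 879 FPKM in control and 316 to 385 in CPP-Se dogs (7 of 9 genes tested lower without overlap), and summed T cell markers 161 to 333 and 368 to 458 (9 of 16 higher without overlap), with no listed marker at 0 in all dogs. Sums of B cell and of NK and cytotoxic markers were higher and those of neutrophil markers lower without overlap, while red cell and platelet markers overlapped. Their part in the members' values was not tested, and in bulk blood fewer cells of a type and less RNA per cell cannot be told apart.

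**Figure D2:**
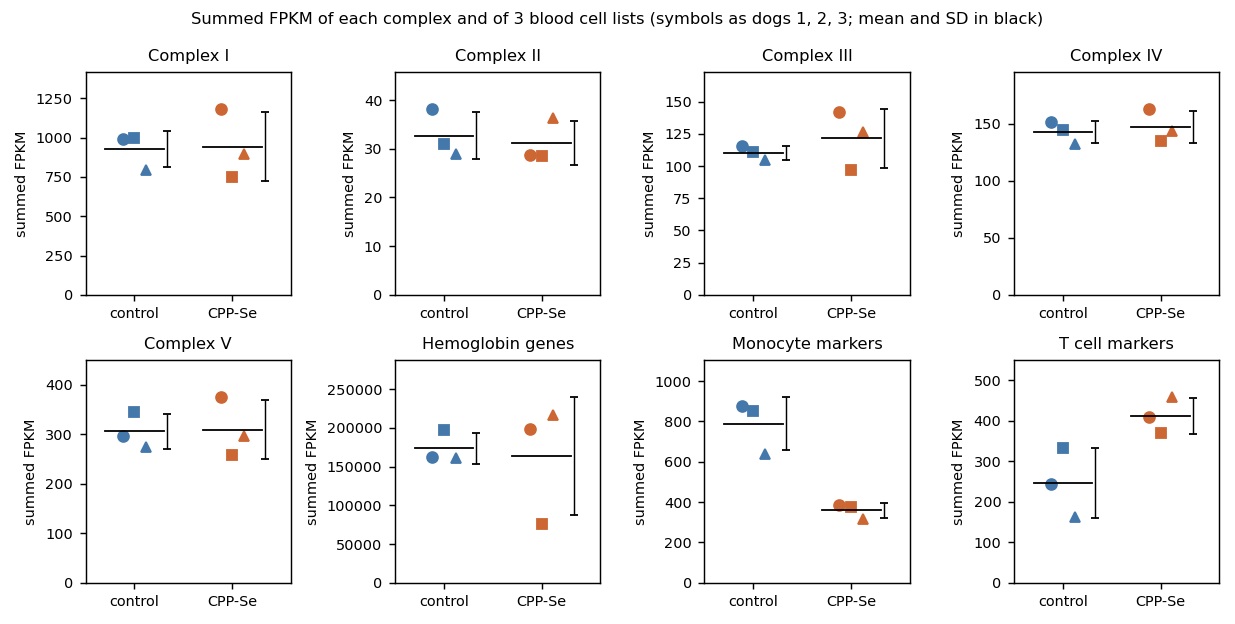
Summed FPKM of the members of each complex and of 3 lists of blood cell genes (hemoglobin, monocyte and T cell markers), 1 symbol per dog, with the mean as a line and the SD as a bar (n = 3 per group). The 5 complexes overlap between the groups, as does hemoglobin with 1 low CPP-Se dog, while the monocyte and T cell sums do not overlap.

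Complex I, the NADH dehydrogenase, was covered by 29 genes, of which 27 were tested. Its median log2 fold change was -0.0044, with 12 positive and 15 negative values. The 7 nuclear core subunits, which carry the flavin, the iron-sulfur clusters and the ubiquinone site, had a median of 0.27, with 5 positive and 2 negative values and no gene called. The 20 accessory subunits tested had a median of -0.04, with 7 positive and 13 negative values. The difference between core and accessory subunits was not tested, since genes of 1 complex in the same dogs are not replicates.

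Among the core subunits, NDUFS8, which binds iron-sulfur clusters near the ubiquinone site, was the most abundant member of all. NDUFS8 stood at 355, 323 and 269 FPKM in control dogs 1, 2 and 3, and at 367, 182 and 227 in CPP-Se dogs 1, 2 and 3. It made up 14.3% to 22.3% of the members' summed FPKM and ranked 163 among all genes. The highest and the lowest dog were both in the CPP-Se group. Its log2 fold change was -0.34 (SE 0.29, adjusted p = 0.613, limma), and without NDUFS8 the members' sum was 1204 ± 122 FPKM in control and 1293 ± 220 in CPP-Se dogs.

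NDUFS7, the core subunit with the last iron-sulfur cluster before ubiquinone, was at 39.9, 47.5 and 33.6 FPKM in control and 90.2, 38.0 and 56.4 in CPP-Se dogs. CPP-Se dog 1 was by far the highest, and dog 2 lay among the controls. Its difference on the log2 scale was 0.53 (SE 0.32, adjusted p = 0.464), or 0.21 to 0.82 with single dogs left out. The gene lies on chromosome 20 (57443258 to 57448825) within the span of SBNO2 on the other strand, which was at a mean of 56.2 FPKM, and the library kit did not mark strand, so reads of the pair could be told apart only by exon position. ATP5F1D of complex V lies within the same gene's span.

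NDUFV1, the NADH-binding flavoprotein, stood at 38.3, 38.6 and 35.6 FPKM in control and 59.4, 52.4 and 37.7 in CPP-Se dogs. CPP-Se dogs 1 and 2 exceeded every control dog, and dog 3 did not. Its log2 fold change was 0.38 (SE 0.21, adjusted p = 0.427).

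A further 3 core subunits overlapped widely. NDUFS3, which lies beside the ubiquinone-reducing arm, ranged from 30.4 to 66.1 FPKM in control and from 34.1 to 72.8 in CPP-Se dogs (log2 fold change 0.20, SE 0.36). NDUFV2, a partner of NDUFV1, ranged from 5.54 to 8.39 and from 7.61 to 11.7 FPKM (0.27, SE 0.24). NDUFS1, the largest subunit with several iron-sulfur clusters, ranged from 4.16 to 7.16 and from 3.64 to 5.95 FPKM (-0.07, SE 0.25). Their adjusted p values were 0.615 to 0.916.

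Of the accessory subunits, NDUFV3 had the largest positive log2 fold change of any member. NDUFV3, a small subunit of the NADH-binding part, lies on chromosome 31 (37118247 to 37130810, + strand). It stood at 8.74, 7.91 and 8.56 FPKM in control and at 36.2, 12.4 and 12.7 in CPP-Se dogs, from 22 to 101 reads per dog. The control dogs were close together, and CPP-Se dog 1 lay far above the other dogs of its group, which were themselves above all controls. The log2 fold change of 1.01 (95% interval 0.13 to 1.90, SE 0.38) did not pass the test (adjusted p = 0.267), and it ranged from 0.53 to 1.27 when single dogs were left out.

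NDUFB7, the most abundant accessory subunit with a symbol, was at 101, 109 and 74.9 FPKM in control and 150, 88.9 and 95.6 in CPP-Se dogs. Its log2 fold change was 0.20 (SE 0.26, adjusted p = 0.748). NDUFS6, which binds zinc, was at 3.01, 3.81 and 3.18 in control and 6.16, 4.41 and 3.36 in CPP-Se dogs (0.35, SE 0.23). In NDUFB7 only CPP-Se dog 1 exceeded the controls, and in NDUFS6 dogs 1 and 2 did.

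NDUFA13, also known as GRIM-19, varied most within complex I. It was at 7.39, 8.60 and 3.32 FPKM in control and 7.42, 3.56 and 0.485 in CPP-Se dogs, the last from 2 reads. Dogs from 0.485 to 7.42 FPKM stood within 1 group, so the log2 fold change of -0.87 had an SE of 0.61 (adjusted p = 0.531), and it ranged from -1.43 to -0.18 when single dogs were left out. At the other end, NDUFA12 had the smallest difference of the members tested, with 8.56, 9.43 and 5.72 FPKM in control and 6.36, 9.02 and 8.10 in CPP-Se dogs.

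The other 15 accessory subunits tested were NDUFS5, NDUFB2, NDUFB3, NDUFB4, NDUFB5, NDUFB6, NDUFB8, NDUFB9, NDUFB10, NDUFB11, NDUFA2, NDUFA6, NDUFA8, NDUFA9 and NDUFA10. Their mean levels ran from 2.34 to 54.7 FPKM. Differences on the log2 scale were between -0.36 and 0.30, with 3 positive and 12 negative values. All 15 overlapped between the groups, and the lowest adjusted p among them was 0.517.

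Complex I held a pair of genes below the limit of the test. NDUFS4, an accessory subunit needed for a stable NADH-binding part, was at 0.979, 2.30 and 0.998 FPKM in control (10, 22 and 12 reads) and at 0, 0.401 and 0.983 in CPP-Se dogs (0, 8 and 9 reads). Control dog 1 lay below CPP-Se dog 3, so the groups overlapped by a narrow margin. NDUFA4L2, placed here by its symbol and induced by low oxygen in other tissues, had no read in any dog.

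**Figure D3:**
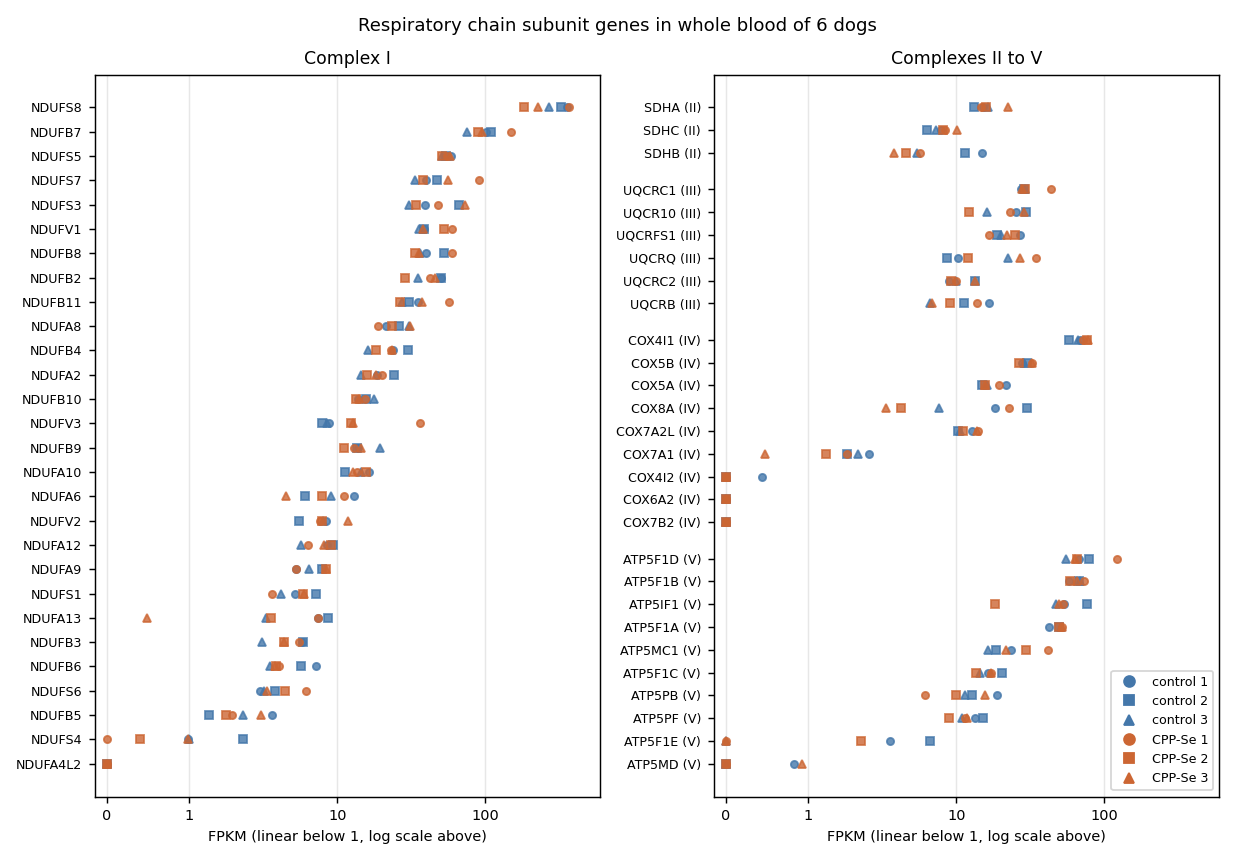
FPKM of 56 of the 57 subunit genes in each of the 6 dogs (axis linear below 1 and logarithmic above), with complex I on the left and complexes II to V on the right. Blue symbols are control and orange symbols CPP-Se dogs; levels within a complex spread from 0 to above 300 FPKM (NDUFS8), and NDUFV3 is the complex I gene with 1 CPP-Se dog far to the right.

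Complex II, the succinate dehydrogenase, also serves the citric acid cycle and was covered by SDHA, SDHB and SDHC. Its median log2 fold change was 0.21, with SDHA and SDHC positive and SDHB negative. SDHB, the iron-sulfur subunit, had the lowest p of all members. It stood at 14.95, 11.4 and 5.40 FPKM in control (101, 72 and 43 reads) and at 5.68, 4.54 and 3.80 in CPP-Se dogs (36, 60 and 23 reads). Control dogs 1 and 2 were above every CPP-Se dog, and control dog 3 lay among them. The log2 fold change was -0.94 (95% interval -1.73 to -0.16, SE 0.34), with an unadjusted p of 0.024 and an adjusted p of 0.253, and it ranged from -1.32 to -0.66 when single dogs were left out.

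SDHB lies on chromosome 2 (81158291 to 81190109, + strand), and a gene without a symbol on chromosome 14 (ENSCAFG00000001397) has the same description. That copy held 265 reads over the 6 dogs against 335 on SDHB, and its log2 fold change was 0.31. How reads shared by the copies were split is not given in the sources used here, so the level of SDHB is uncertain to that extent.

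SDHA, the flavoprotein that oxidises succinate, was at 15.3, 13.2 and 16.3 FPKM in control and 14.6, 15.8 and 22.4 in CPP-Se dogs (log2 fold change 0.21, SE 0.21, adjusted p = 0.669). SDHC, a membrane anchor, was at 7.93, 6.32 and 7.28 in control and 8.37, 8.15 and 10.1 in CPP-Se dogs. All CPP-Se dogs lay above all control dogs for SDHC, by a margin smaller than the spread within either group. SDHC did not pass the test (log2 fold change 0.27, SE 0.18, adjusted p = 0.503).

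Complex III, the ubiquinol-cytochrome c reductase, was covered by 6 genes, all tested, with a median log2 fold change of -0.01 and 3 values in each direction. UQCRC1, a core protein, was the most abundant of the 6, at 27.6, 28.8 and 29.3 FPKM in control and 43.6, 29.1 and 27.7 in CPP-Se dogs (log2 fold change 0.19, SE 0.21, adjusted p = 0.702). Apart from CPP-Se dog 1, its values lay within a narrow band. The other core protein, UQCRC2, was at 10.7 ± 2.29 FPKM in control and 10.9 ± 2.26 in CPP-Se dogs (SD, n = 3). UQCRFS1, the Rieske iron-sulfur protein, was at 22.0 ± 4.23 and 21.3 ± 4.26 FPKM, a difference well inside the spread between dogs.

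The small subunits of complex III varied more. UQCR10 was at 25.5, 29.6 and 16.2 FPKM in control and 23.0, 12.3 and 28.7 in CPP-Se dogs (log2 fold change -0.19, SE 0.34, adjusted p = 0.832). UQCRQ was at 10.3, 8.68 and 22.2 in control and 34.6, 12.1 and 27.2 in CPP-Se dogs. For UQCRQ, CPP-Se dogs 1 and 3 exceeded all controls and dog 2 did not, and the log2 fold change of 0.79 (SE 0.45) had an adjusted p of 0.433 and ranged from 0.49 to 1.21 with single dogs left out. The remaining gene, UQCRB, overlapped between the groups at a mean of 10.7 FPKM.

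Complex IV, the cytochrome c oxidase, was covered by 9 genes, of which 6 were tested, with a median log2 fold change of 0.01. COX4I1, the common isoform of a subunit that binds ATP, was the most abundant of the 9, at 68.2, 57.5 and 66.8 FPKM in control and 72.3, 75.9 and 78.2 in CPP-Se dogs. The groups did not overlap, but control dog 1 and CPP-Se dog 1 were only a few FPKM apart. The log2 fold change of 0.23 (95% interval -0.17 to 0.63, SE 0.17) had an adjusted p of 0.552. COX5B, which binds zinc, was at 28.9 ± 1.28 FPKM in control and 30.5 ± 3.38 in CPP-Se dogs, with a log2 fold change of 0.07 (SE 0.17).

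COX8A, the common isoform of the smallest subunit, had values scattered over both groups. It was at 18.1, 30.0 and 7.70 FPKM in control and 22.6, 4.22 and 3.37 in CPP-Se dogs, with 11 to 102 reads per dog. CPP-Se dogs 2 and 3 were below every control dog and dog 1 was second among all. Its log2 fold change was -1.09, with an SE of 0.69 and an adjusted p of 0.492, and it ranged from -1.85 to -0.64 when single dogs were left out. COX5A and COX7A2L, at means of 17.2 and 12.1 FPKM, overlapped between the groups, with log2 fold changes from -0.04 to 0.19.

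The isoforms of complex IV known from muscle or testis were near or at 0. COX7A1, the heart and skeletal muscle isoform, was at 2.56, 1.83 and 2.18 FPKM in control and 1.82, 1.31 and 0.476 in CPP-Se dogs, from 6, 4 and 6 reads against 4, 6 and 1. The groups did not overlap on the FPKM scale, while their read counts did. Its log2 fold change was -0.58 (SE 0.29, adjusted p = 0.384). COX4I2, an isoform best known from lung, had 2 reads in 1 control dog, and COX6A2, of heart and skeletal muscle, and COX7B2, of testis, had none in any dog.

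Complex V was covered by 10 genes, of which 9 were tested, with a median log2 fold change of -0.08 and 4 positive and 5 negative values. In the F1 head, which makes ATP, ATP5F1B (the catalytic beta subunit) was at 57.9, 67.4 and 68.4 FPKM in control and 73.0, 59.0 and 65.3 in CPP-Se dogs. ATP5F1A (alpha) was at 42.4, 49.7 and 50.9 in control and 51.6, 49.7 and 51.6 in CPP-Se dogs. These catalytic subunits were among the most even of the members, with log2 fold changes of 0.02 (SE 0.18) and 0.10 (SE 0.17) and adjusted p values of 0.963 and 0.816. ATP5F1C (gamma), of the rotating stalk, was at 17.1 ± 2.91 and 16.0 ± 2.04 FPKM (log2 fold change -0.08, SE 0.20).

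ATP5F1D (delta), the most abundant complex V member by symbol, was at 67.2, 78.9 and 55.5 FPKM in control and 122, 65.8 and 63.0 in CPP-Se dogs. Again CPP-Se dog 1 was the highest and the others lay among the controls (log2 fold change 0.26, SE 0.29, adjusted p = 0.707). ATP5F1E (epsilon) rested on 16 reads in all, 4, 7 and 0 in control and 0, 5 and 0 in CPP-Se dogs. Its log2 fold change of -1.14, the most negative of the members, had an SE of 0.79 and an adjusted p of 0.526, and at this depth no difference could be measured.

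Outside the head, ATP5MC1 encodes a form of the c subunit that makes up the rotor ring in the membrane. It was at 23.5, 18.4 and 16.4 FPKM in control and 41.9, 29.7 and 21.6 in CPP-Se dogs. CPP-Se dogs 1 and 2 exceeded all controls, and dog 3 was between control dogs 1 and 2. The log2 fold change was 0.62 (95% interval -0.0052 to 1.24, SE 0.27), with an unadjusted p of 0.0515 and an adjusted p of 0.317.

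ATP5IF1, the inhibitor that blocks ATP hydrolysis by the enzyme, was at 53.4, 76.0 and 46.9 FPKM in control and 52.5, 18.3 and 49.1 in CPP-Se dogs. The low value was that of CPP-Se dog 2, the dog with the smallest share of hemoglobin reads. The log2 fold change was -0.65 (SE 0.40, adjusted p = 0.480), and it ranged from -0.91 to -0.18 when single dogs were left out. Of the peripheral stalk, ATP5PB was at 18.8, 12.8 and 11.5 FPKM in control and 6.17, 10.03 and 15.7 in CPP-Se dogs (-0.46, SE 0.33, adjusted p = 0.544), and ATP5PF overlapped at a mean of 11.96 FPKM. ATP5MD had 2 reads in all, while 1 of the 3 genes without a symbol that carry its description held 961, so its level could not be told from the row with the symbol.

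Gene spans overlapped another gene for 21 of the 57 members, on the opposite strand for 18, and 15 members shared their description with at least 1 other gene. The members lay on 29 chromosomes. Close pairs were NDUFS8 and NDUFV1 (82927 bases apart on chromosome 18) and NDUFS7 and ATP5F1D (98545 bases on chromosome 20). The log2 fold changes of NDUFS8 and NDUFV1 were of opposite sign, and those of NDUFS7 and ATP5F1D were both positive.

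Other genes of mitochondrial function also gave 0 calls by limma in each list. Of 39 assembly factors tested (median log2 fold change 0.10), 3 were higher (7.69% against 10.4% of all genes) and 1 was lower (2.56% against 12.6%) without overlap, and 3 had an unadjusted p under 0.05 (7.69% against 16.0%). NDUFAF3, a complex I assembly factor chosen here after its values were seen, was at 22.2, 26.7 and 24.2 FPKM in control and 49.0, 34.4 and 41.8 in CPP-Se dogs (log2 fold change 0.74, SE 0.19, adjusted p = 0.176). All CPP-Se dogs were above all control dogs for NDUFAF3, which did not pass the test. CYC1, the cytochrome c1 of complex III that the naming rule leaves out, and CYCS, cytochrome c itself, had log2 fold changes of 0.60 (SE 0.32) and 0.32 (SE 0.33), with overlapping groups.

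The 58 mitochondrial ribosomal proteins tested had a median log2 fold change of 0.21, with 39 positive and 19 negative values. Of these, 9 were higher without overlap (15.5% against 10.4% of all genes) and 2 lower (3.45% against 12.6%), and 7 had an unadjusted p under 0.05 (12.1% against 16.0%). For the 11 enzymes of the citric acid cycle the median was 0.07, and 0 had an unadjusted p under 0.05 or separated groups. Among 12 regulators of mitochondrial biogenesis (median 0.09), 3 were higher without overlap (25% against 10.4% of all genes), 0 were lower, and 1 had an unadjusted p under 0.05. POLRMT, the mitochondrial RNA polymerase, also chosen after its values were seen, was at 4.52, 4.42 and 4.65 FPKM in control and 9.15, 9.25 and 8.19 in CPP-Se dogs. All CPP-Se dogs were above all control dogs, and its log2 fold change of 0.83 (SE 0.16) had an adjusted p of 0.138 in limma. POLRMT was the only gene of these lists called by voom with sample weights (adjusted p = 0.0407), a fit that called 156 genes in all, and its adjusted p ranged up to 0.455 over the alternatives.

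The 13 protein genes of the mitochondrial genome, whose products join the nuclear subunits in complexes I, III, IV and V, had a median log2 fold change of 0.03, with 7 positive and 6 negative values. Their summed FPKM was 4987 ± 390 in control and 4742 ± 941 in CPP-Se dogs (SD, n = 3). COX3, a core subunit of complex IV, was lower in all CPP-Se dogs (752, 887 and 518 FPKM against 1061, 1247 and 1066, adjusted p = 0.285), and MT-ND1, of complex I, was higher in all (178, 213 and 294 against 147, 173 and 151, adjusted p = 0.345). Neither passed the test. COX3 was the 1 lower gene without overlap (7.69% of the 13, against 12.6% of all genes), and MT-ND1 the 1 higher gene (7.69% against 10.4%). The libraries were enriched for poly-A RNA, and how far mitochondrial transcripts are captured in that step was not measured here.

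**Figure D4:**
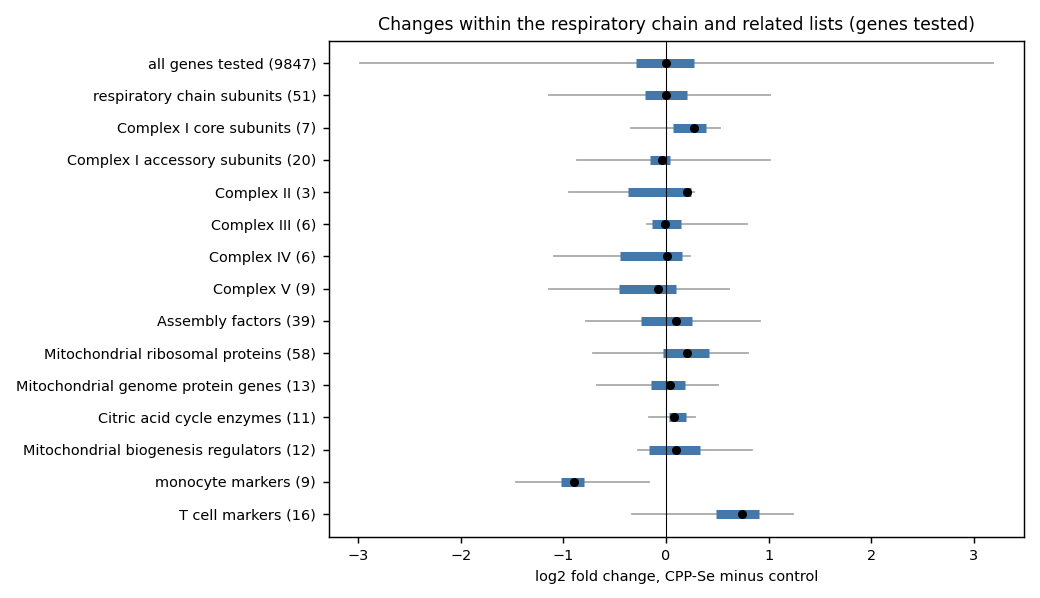
Median (black point), quartiles (blue bar) and full range (grey line) of the log2 fold change in the respiratory chain, its complexes, related mitochondrial lists and 2 lists of blood cell markers, with the number of genes tested in brackets. The members and all genes tested have medians of -0.0044 and -0.0043, while the monocyte markers lie at a median of -0.89 and the T cell markers at 0.74.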

How the data were processed

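RNA of whole blood, taken on day 30 from 3 control and 3 CPP-Se dogs, was sequenced by the authors as paired ends after oligo(dT) enrichment. Alignment by the authors used HISAT2 2.0.5 and the Ensembl release 100 dog genome (build name not given in the sources used here), assembly used StringTie 1.3.3b, and the values they deposited are FPKM, made from the reads and the length of each gene. The submitters' processing notes also name fastp 0.19.7 and featureCounts 1.5.0-p3. Strand setting and library size are not given. FPKM times gene length came out as whole multiples of 1 read (tolerance 0.01) for 100% of values, and these reads served to give depth.

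Dogs were grouped by their labels. The 9847 of 31512 genes that averaged 1 FPKM or more were compared in R 4.3.3 with limma 3.58.1 (lmFit, then eBayes with a trend) after a log2(FPKM + 1) transformation, two-sided, with Benjamini-Hochberg adjustment. Fold changes on this scale understate those of low genes. Each dog had 6598173 to 8067034 reads on genes, and with 3 dogs per group the number of dogs limits the precision. On simulated data with 200 genes changed 4-fold, 190 were called with 16 others, and none without changes. That change was larger than the estimate for any member tested, and the simulated spread was set rather than taken from these dogs. The simulation therefore cannot show how often changes of the members' size would be called. Sums and figures were made in Python 3.11.15 with pandas 2.3.3 and matplotlib 3.10.9. The members and gene lists were chosen with earlier results of these data known.

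Members named one by one were mostly chosen by rule. They were the 2 most abundant of complexes I, III, IV and V, all SDH genes and the core subunits of complex I. Also named were the Rieske and core proteins of complex III, the F1 subunits and the tissue-restricted isoforms. The rule further took those without overlap between groups and the one with the smallest change. NDUFS4 and ATP5MD, too low to test, were described outside this rule. COX8A, ATP5IF1, ATP5MC1, UQCRQ, NDUFA13, ATP5PB and NDUFS6 were added after their values were seen. Alternatives were another pseudocount, other filters, 4 other scalings, other eBayes and weighting options, voom, the replicate number as a block and each dog left out. Values of 1 member are not reported here, though it is part of all counts and sums. No sequences are shown, since none of the files used here hold them.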

Additional observations from a re-analysis of the deposited data

How the results depend on the processing

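No member was called under any of the 20 alternatives. The count over all genes, 3, moved to 0 with a pseudocount of 0.1 and without a filter, 1 with a filter of 5 FPKM, 12 with a common sum of FPKM, 1 with voom, 156 with voom and sample weights, and 0 to 14 with single dogs left out (14 without CPP-Se dog 2, 0 without any one control dog or CPP-Se dog 3, and 1 without CPP-Se dog 1). Members higher without overlap, 3, became 7 with a common sum without hemoglobin (13.7%, against 13.4% of all genes), 5 with the median of ratios (9.80% against 11.0%) and 4 to 9 with single dogs left out (9 without CPP-Se dog 2, 17.6% against 16.2%). Members lower, 1, became 0 with the 5 FPKM filter and with both common sums, 2 with the upper quartile and 1 to 9 with single dogs left out (9 without control dog 3, 17.6% against 17.2% of all genes). Both common sums moved the median of all genes to 0.13 and 0.12, and under them NDUFS1 (0.069 and 0.055), UQCRFS1 (0.11 and 0.10) and ATP5F1C (0.069 and 0.060) turned positive, all below that shift. NDUFA12 was -0.080 with voom and sample weights. Leaving out single dogs, the complex II median ran from 0.031 (without CPP-Se dog 3) to 0.31, and these log2 fold changes crossed 0: NDUFB7 -0.027 to 0.35, UQCRC1 -0.0082 to 0.31, UQCR10 -0.43 to 0.15, ATP5F1D -0.047 to 0.42, ATP5F1B -0.053 to 0.10, NDUFS1 -0.23 to 0.12, NDUFS3 -0.076 to 0.51, UQCRFS1 -0.17 to 0.11, COX5A -0.15 to 0.11, UQCRC2 -0.13 to 0.17, ATP5F1C -0.18 to 0.045 and NDUFA12 -0.19 to 0.13. NDUFS5, NDUFB3, NDUFB4, NDUFB5, NDUFB8, NDUFA2, NDUFA6, NDUFA8, NDUFA10 and UQCRB also crossed 0 when single dogs were left out. The cause of these shifts was not tested. The members' median was 0.11 without control dog 2 and -0.050 with voom and sample weights, against -0.0042 and -0.0052 for all genes. Over the 32 members followed one by one, 610 of 637 values kept their direction. Part of these values could not differ from the main fit. The other filters, the eBayes options without weights, the replicate block and the fit without a fold change threshold leave a member's log2 fold change as it was.

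The labels number the dogs 1 to 3 in each group without pairing them, and same-numbered dogs did not deviate together (correlations of -0.090 to 0.016). With the replicate block, 1 gene in all and 0 members were called, with 6 members (11.8%, against 13.8% of all genes) at an unadjusted p under 0.05. Depth limits the rare members: 6 were too low to test, and ATP5F1E and COX7A1 rested on 16 and 27 reads.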

Other observations

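A further 138 genes outside the mitochondrial genome have no symbol and were found by a subunit name in their description. They lie outside the naming rule: 25 for complex I, 3 for complex II, 3 for complex III, 40 for complex IV and 67 for complex V. The search did not cover the description of ATP5MD, so the 3 other genes that carry it are not among the 138. Complex V counts ENSCAFG00000023218, described as ATP synthase subunit a, a subunit that the mitochondrial genome encodes (MT-ATP6). Of the 138, 64 had no read in any dog and 40 were tested. None was called by limma, 10 had an unadjusted p under 0.05, and 6 were higher and 6 lower without overlap. An unadjusted p under 0.05 was thus seen in 25% of the 40, against 16.0% of all genes, and 15% each were higher and lower, against 10.4% and 12.6%. The 40 are not all distinct subunits, since several share a description. Among the lower genes, ENSCAFG00000011325, ENSCAFG00000002038 and ENSCAFG00000000808 are all described as ATP synthase subunit d. How reads shared by such copies were split is not given. Several subunits that the symbols miss appear only here, so the account by symbol leaves part of each complex out. The gene described as the small membrane anchor of complex II (ENSCAFG00000047557, chromosome 5) was at 14.3, 22.2 and 18.6 FPKM in control and 17.0, 16.1 and 13.5 in CPP-Se dogs (log2 fold change -0.22).

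Among these genes, ENSCAFG00000004260 on chromosome 15, described as cytochrome b-c1 complex subunit 6, the hinge protein of complex III, exceeded every member with a symbol at a mean of 1734 FPKM. It was at 1993, 2224 and 2034 FPKM in control and 1483, 704 and 1965 in CPP-Se dogs. All CPP-Se dogs were lower, dog 3 only slightly and dog 2 by the widest margin, and the log2 fold change of -0.71 had an adjusted p of 0.423. This gene alone was above the summed FPKM of all 57 members in 4 of the 6 dogs.

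The complex I gene described as alpha subcomplex subunit 3 (ENSCAFG00000002703, chromosome 1) was at 114, 125 and 107 FPKM in control and 61.6, 43.5 and 93.5 in CPP-Se dogs (log2 fold change -0.86, adjusted p = 0.222), the lowest adjusted p of the 40. Conversely, the gene described as subunit C2 of complex I (ENSCAFG00000004842, chromosome 21) was at 28.1, 21.3 and 20.1 in control and 37.7, 29.1 and 51.9 in CPP-Se dogs (0.72, adjusted p = 0.245). Both separated the groups without passing the test. These genes were picked after their values were seen.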
